A study of Mus musculus with 12 samples.

Results

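The annexins are calcium-dependent proteins that bind phospholipid membranes, and their messages were followed here through 4 stages of granulocyte formation in mouse bone marrow. The 8 members examined were Anxa1, Anxa2, Anxa3, Anxa4, Anxa5, Anxa6, Anxa7 and Anxa11, found by symbol among the annotated probe sets and taken at the probe set with the highest mean where a gene had several. All 8 were measured, of 19937 genes in all, and each lay above the dim level defined below in every group. Total RNA of cells sorted from untreated C57BL/6 mice, with no genetic change given, had been hybridized to Affymetrix Mouse Gene 1.0 ST arrays. There were 3 arrays each of LSK cells (lineage-negative, Sca1-positive, cKit-positive cells, which the labels also call hemopoietic stem cells), promyelocytes, myelocytes and granulocytes, 12 arrays in all. LSK cells are a mixture of stem cells and early progenitors, and the later stages were separated by the surface markers Gr-1, cKit, CD34 and CD16/32, so each array averages over the cells that passed a gate. Arrays of a stage are labelled as biological replicates, with no word on whether each came from its own mouse, and p-values rest on the spread between those arrays alone, part of which may be technical.

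Annexins share a core of repeats that binds acidic phospholipids such as phosphatidylserine when calcium rises, and a variable N-terminal tail through which several of them bind partner proteins. They take part in membrane trafficking, fusion of vesicles, repair of the plasma membrane and the clearance of dying cells. In neutrophils, which release granules and end their life by apoptosis, Anxa1 is known as a brake on inflammation that acts through formyl peptide receptors, and Anxa3 as a protein of the granules. Anxa5 is widely used in the laboratory to stain phosphatidylserine that has moved to the outer face of a cell.

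Values below are on the log2 scale of the deposited expression values, differences carry their standard error with n = 3 arrays per group, and a gene is called where limma gave an adjusted p under 0.05 and the fold was at least 2. Levels of different probe sets cannot be compared, so each annexin is set against itself across stages. Positions are those of whole genes in RefSeq for mouse build GRCm38.p6. The olfactory and vomeronasal receptors, taken as silent in these cells, set a dim level of 4.51. By markers chosen for each stage, 4 of 4 measured LSK markers were called lower in promyelocytes than in LSK cells, 5 of 5 promyelocyte markers lower in myelocytes than in promyelocytes, and 5 of 5 granulocyte markers higher in myelocytes than in promyelocytes. Between granulocytes and myelocytes the markers of those stages separated less. There 3 of 5 granulocyte markers were called higher (Mmp8 and Mmp9 were not) and 1 of 5 myelocyte markers lower. All 5 promyelocyte markers were called lower in granulocytes than in myelocytes. Of these, 3 were called higher in promyelocytes than in LSK cells, and Elane and Ctsg were not. Markers of other cells were present too. The summed level of 7 basophil and mast cell markers was 9.71 to 10.2 in LSK cells, 11.3 to 12.7 in promyelocytes, 12.3 to 14.1 in myelocytes and 11.6 to 11.8 in granulocytes, where it was carried by Hdc (mean 11.6) and the IgE receptor subunits were dim. Against LSK cells, Hdc was the 1 marker of that list called higher in granulocytes, and Cpa3 and Gata2 were lower. The summed level of 7 eosinophil markers was 8.90 to 12.6 in promyelocytes and at most 9.08 in the other stages. That of 7 monocyte and macrophage markers was 8.94 to 10.4 in LSK cells, 11.9 to 12.7 in promyelocytes, 9.98 to 11.5 in myelocytes and 10.1 to 10.3 in granulocytes. The highest of these in granulocytes were Csf1r (mean 9.26) and Adgre1 (7.95). Against myelocytes, those 2 were called higher in granulocytes and the other 5 lower. Over all arrays the sums were 6.68 to 8.52 for 5 B cell and 7.49 to 9.04 for 5 megakaryocyte markers. The highest sums of the T and NK cell and erythroid lists rested on a single marker each, Nkg7 (10.7 in promyelocytes, where Cd3e was at 4.92 and Cd3g, Cd2, Il7r and Klrb1c were dim) and Car1 (9.37 in LSK cells, where Klf1 was at 4.87 and Epor at 5.49). LSK array 3 stood apart in its group, with a summed level of 5 promyelocyte markers of 11.3, where the highest LSK array had 13.5, and a monocyte and macrophage sum of 8.94 against 10.0 and 10.4.

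The moderated F test over the 4 stages was passed by all 8 annexins and by 54.0% of all genes, though Anxa6 did not pass with the mean of its 2 probe sets (adjusted p = 0.126) and Anxa5 passed narrowly. In the first step, from LSK cells to promyelocytes, Anxa2 and Anxa3 were called higher and 0 annexins lower, where 1.61% of genes were called higher and 2.75% lower. In the same step 7 of 7 monocyte and macrophage markers were called higher, with a median difference of 2.20, and their part in the annexin values was not tested. In the second step, from promyelocytes to myelocytes, 4 annexins were called higher (Anxa1, Anxa2, Anxa7 and Anxa11) and 0 lower, where 7.61% of genes were called higher and 9.87% lower. In the last step, from myelocytes to granulocytes, 0 of 8 were called by limma, where 2.35% of genes were called higher and 5.96% lower. There 4 of the 8 had an unadjusted p under 0.05, and 3 had an adjusted p under 0.05 at less than 2-fold (Anxa2, Anxa4 and Anxa7), a threshold that 21.9% of all genes passed. The median difference of the 8 was 0.38 in the first step, 1.09 in the second and -0.21 in the last, beside 0.04, 0.01 and 0.09 over all genes.

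**Figure D1:**
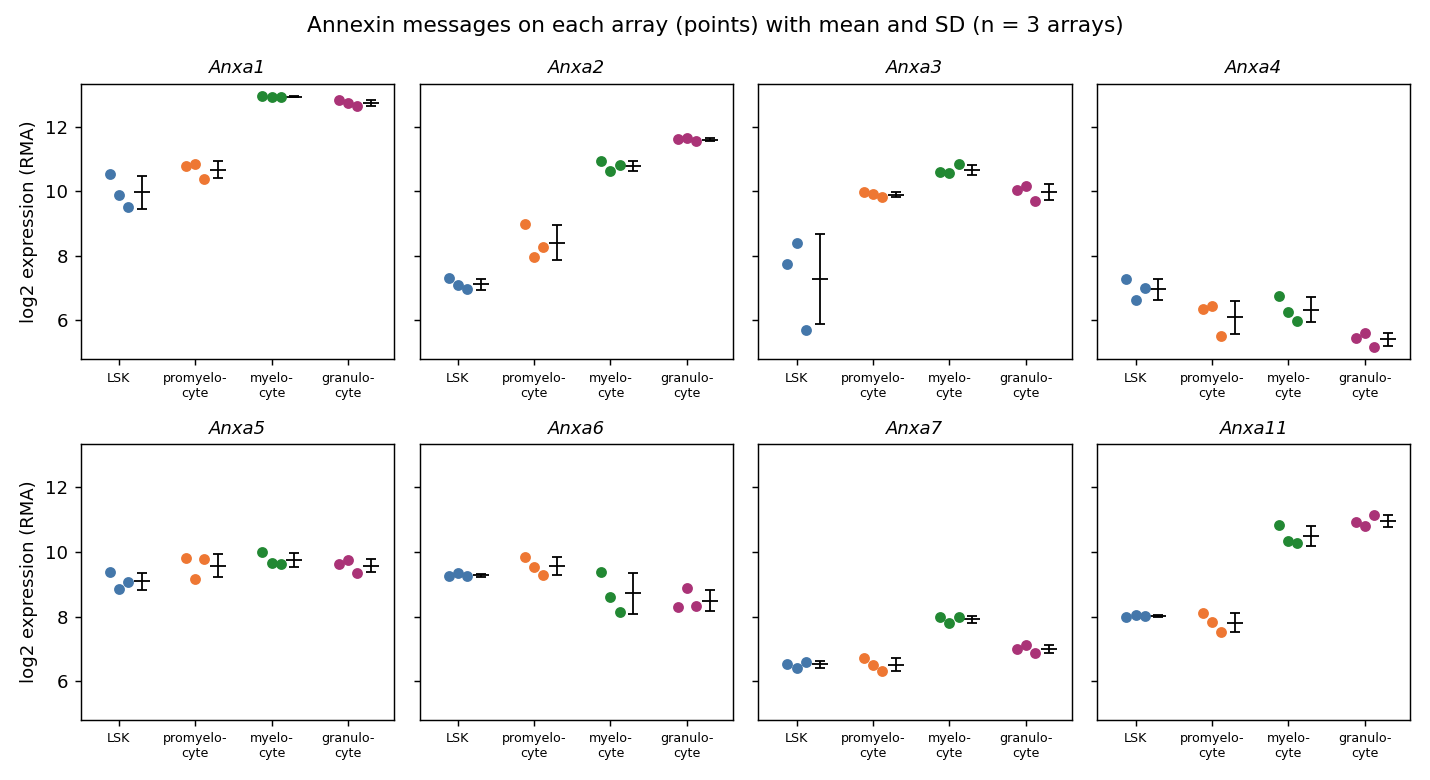
Each panel shows 1 annexin, with its log2 expression on the vertical axis and the 4 stages along the horizontal axis; points are arrays, and the bar beside them gives the mean and SD (n = 3). Anxa1, Anxa2, Anxa7 and Anxa11 have all 3 myelocyte arrays above all promyelocyte arrays, as has Anxa3, whose LSK arrays are low and far apart, and Anxa5 stays between 8.84 and 10.0 throughout. The share of all genes whose arrays separate in this way was not counted.

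Anxa1 (probe set 10466606, chr19:20373434-20390671), the inhibitor of inflammation also known as lipocortin, had levels of 10.52, 9.90 and 9.50 on the LSK arrays, 10.78, 10.85 and 10.38 in promyelocytes, 12.94, 12.90 and 12.93 in myelocytes and 12.81, 12.72 and 12.63 in granulocytes. The LSK and promyelocyte arrays overlapped each other, and all 6 lay below the 6 myelocyte and granulocyte arrays. The second step raised Anxa1 by 2.26 ± 0.21 (adjusted p = 3.70e-07), a 4.78-fold rise. In the first step the difference was 0.70 ± 0.21 (adjusted p = 0.0371), under 2-fold, and between granulocytes and myelocytes it was -0.21, with a 95% interval of -0.65 to 0.24.

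Anxa2 (probe set 10586744, chr9:69453683-69491792), which forms a complex with S100a10 at the plasma membrane and on endosomes, was at 7.31, 7.08 and 6.98 in LSK cells, 8.99, 7.95 and 8.27 in promyelocytes, 10.92, 10.61 and 10.82 in myelocytes and 11.61, 11.63 and 11.56 in granulocytes. No stage overlapped another, and each stage stood above the one before it. The steps were 1.28 ± 0.21 (2.43-fold, adjusted p = 0.000722), 2.38 ± 0.21 (5.20-fold) and 0.82 ± 0.21 (1.76-fold, adjusted p = 0.00966), so the last was past the p threshold but not called. Without promyelocyte array 1 the first step was 0.98 (adjusted p = 0.00194), under 2-fold, and was no longer called. That array was also highest of its group in the myelocyte marker Camp (8.86 against 6.77 and 6.74) and in the summed levels of myelocyte (11.8 against 10.4 and 10.5), basophil and mast cell (12.7 against 11.3 and 11.5) and monocyte and macrophage markers (12.7 against 11.9 and 11.9), and their part in the value was not tested. From LSK cells to granulocytes Anxa2 rose by 4.48 ± 0.21, a 22.2-fold difference.

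Anxa1, Anxa2, Anxa7 and Anxa11 were all called higher in the second step. For Anxa1 and Anxa2 the 250 bases before the annotated starts are shown as reference sequence. They are from RefSeq (mouse build GRCm38.p6) and run 5′ to 3′ on the strand of the gene. The Anxa1 stretch is chr19:20390672-20390921 on the minus strand, just upstream of the gene. The Anxa2 stretch is chr9:69453433-69453682 on the plus strand, just before the gene. Capitals mark matches to the motifs searched on both strands.
Anxa1: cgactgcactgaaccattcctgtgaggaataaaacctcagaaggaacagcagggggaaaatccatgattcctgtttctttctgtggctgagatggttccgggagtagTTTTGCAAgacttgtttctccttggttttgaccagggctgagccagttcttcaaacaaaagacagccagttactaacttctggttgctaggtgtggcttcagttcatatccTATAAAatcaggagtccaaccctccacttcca
Anxa2: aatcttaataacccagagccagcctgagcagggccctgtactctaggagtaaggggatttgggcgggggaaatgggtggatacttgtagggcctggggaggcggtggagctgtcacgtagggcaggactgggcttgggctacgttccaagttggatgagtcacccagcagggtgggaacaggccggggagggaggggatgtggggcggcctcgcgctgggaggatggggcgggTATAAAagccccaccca
The motifs were TTGCNNAA, a motif of C/EBP factors, AGAGGAAG, a motif of PU.1, and TATAAA, the TATA box, which was added after the windows had been read. Anxa1 holds a C/EBP match on the minus strand from -143 to -136 and a TATAAA from -32 to -27, counted from the start, and Anxa2 holds a TATAAA from -17 to -12. The matches do not overlap one another. Of 32851 windows of 300 bases (250 before and 50 after a start), 10.8% held the C/EBP motif, 4.55% the PU.1 motif and 13.6% TATAAA, so these matches are descriptions of the letters and not of bound sites. The stretches differ in composition, with 46.0% G and C and 2 CG pairs for Anxa1 against 62.4% and 9 for Anxa2, beside medians of 52.4% and 6 over all windows. Of the 8 members 6 were matched to 8 windows, and Anxa3 and Anxa6 were not. An alternative start of Anxa4 had a C/EBP match from -208 to -201, and the other windows of Anxa4, Anxa5, Anxa7 and Anxa11 had no match.

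Anxa11 (probe set 10413229, chr14:25842127-25886804), which binds the calcium-binding proteins Pdcd6 and S100a6 through its tail and has a role in cell division, was at 8.00, 8.05 and 8.01 in LSK cells, 8.09, 7.83 and 7.51 in promyelocytes, 10.85, 10.33 and 10.28 in myelocytes and 10.93, 10.81 and 11.15 in granulocytes. Its change was almost wholly in the second step, by 2.68 ± 0.18 (6.40-fold, adjusted p = 1.28e-08), the largest of the 8 annexins in that step. The LSK and promyelocyte arrays overlapped (difference -0.21, 95% interval -0.59 to 0.18), and so did those of myelocytes and granulocytes (0.47, adjusted p = 0.0760).

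Anxa7 (probe set 10417869, chr14:20455261-20480133), also called synexin and known for aggregating and fusing secretory vesicles, was at 6.54, 6.41 and 6.61 in LSK cells, 6.72, 6.51 and 6.31 in promyelocytes, 7.98, 7.79 and 7.98 in myelocytes and 7.00, 7.11 and 6.87 in granulocytes. The 3 myelocyte arrays were above all 9 others. Anxa7 rose by 1.41 ± 0.14 in the second step (2.65-fold, adjusted p = 9.95e-07) and was 0.92 ± 0.14 lower in granulocytes than in myelocytes (1.90-fold, adjusted p = 0.000187), under the fold threshold. Granulocytes remained 0.48 above both LSK cells (adjusted p = 0.0110) and promyelocytes (adjusted p = 0.0100), again under 2-fold.

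Anxa3 (probe set 10523451, chr5:96793385-96845968) was the annexin with the largest first step. Its levels were 7.74, 8.38 and 5.70 in LSK cells, 9.96, 9.90 and 9.81 in promyelocytes, 10.60, 10.55 and 10.84 in myelocytes and 10.05, 10.17 and 9.71 in granulocytes. Every LSK array was below every later array, and the LSK arrays were far apart. The first step was 2.62 ± 0.44 (6.14-fold, adjusted p = 0.000916), and 1.83 without LSK array 3, the array that was also low in promyelocyte markers and in monocyte and macrophage markers. That array was the lowest of its group, too, in the basophil and mast cell, eosinophil, B cell, T and NK cell, erythroid and megakaryocyte sums. The part of those cells in the LSK values of Anxa3 was not tested. All 3 myelocyte arrays were above all promyelocyte and all granulocyte arrays, but the 3 later stages did not differ past the threshold, with intervals of -0.17 to 1.71 for myelocytes over promyelocytes, -1.63 to 0.25 for granulocytes over myelocytes and -0.86 to 1.02 for granulocytes over promyelocytes. In RNA from sorted populations, a change in the share of cells that carry a message and a change in its amount per cell cannot be told apart.

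Anxa4 (probe set 10545958, chr6:86736840-86793634), described mainly in epithelia and on secretory vesicles, ran the other way. It was at 7.27, 6.63 and 6.99 in LSK cells, 6.35, 6.43 and 5.51 in promyelocytes, 6.74, 6.25 and 5.99 in myelocytes and 5.45, 5.60 and 5.19 in granulocytes. LSK arrays were above all promyelocyte arrays, and granulocyte arrays below all myelocyte arrays, while 1 promyelocyte array lay among the granulocytes. The differences of the first (-0.87 ± 0.25, adjusted p = 0.0311) and last (-0.91 ± 0.25, adjusted p = 0.0151) steps were each under 2-fold, and over the whole course from LSK cells to granulocytes Anxa4 fell by 1.55 ± 0.25 (2.93-fold, adjusted p = 7.03e-05). The first step passed 2-fold without LSK array 2 (-1.03) or promyelocyte array 2 (-1.04), and the last without myelocyte array 3 (-1.08) or granulocyte array 2 (-1.01).

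Anxa6 (probe set 10385966, chr11:54978953-55033471), an endosomal annexin with a doubled core, was at 9.25, 9.34 and 9.25 in LSK cells, 9.84, 9.54 and 9.29 in promyelocytes, 9.39, 8.61 and 8.15 in myelocytes and 8.29, 8.88 and 8.32 in granulocytes. All granulocyte arrays were below all promyelocyte and LSK arrays, and the myelocyte arrays overlapped those of every other stage. Granulocytes were 1.06 ± 0.25 below promyelocytes (-1.06, 2.09-fold, adjusted p = 0.00242). This call was close to the fold threshold and was lost with arrays centred on their 75th percentile (-0.84), with the mean of the 2 Anxa6 probe sets (-0.38), and without promyelocyte array 1 (-0.92), granulocyte array 1 (-0.96) or granulocyte array 3 (-0.98). The difference of the second step, -0.84 ± 0.25, was -1.18 (adjusted p = 0.000464) and called without myelocyte array 1, and that of the last step went from -0.22 to 0.12. That array was also the highest of its group in the basophil and mast cell sum (14.1 against 13.2 and 12.3), whose part in the value was not tested.

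Anxa5 (probe set 10497817, chr3:36448923-36475887), the phosphatidylserine binder, varied least. It was at 9.37, 8.84 and 9.06 in LSK cells, 9.81, 9.16 and 9.77 in promyelocytes, 10.01, 9.66 and 9.62 in myelocytes and 9.64, 9.75 and 9.35 in granulocytes. Of the neighbours in order of level none differed past the threshold, and the largest difference, myelocytes over LSK cells, was 0.67 ± 0.20 (1.59-fold, adjusted p = 0.0136). Its F test passed narrowly (adjusted p = 0.0451) and passed in 12 of 21 alternative settings, with adjusted p from 0.0122 to 0.200.

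**Figure D2:**
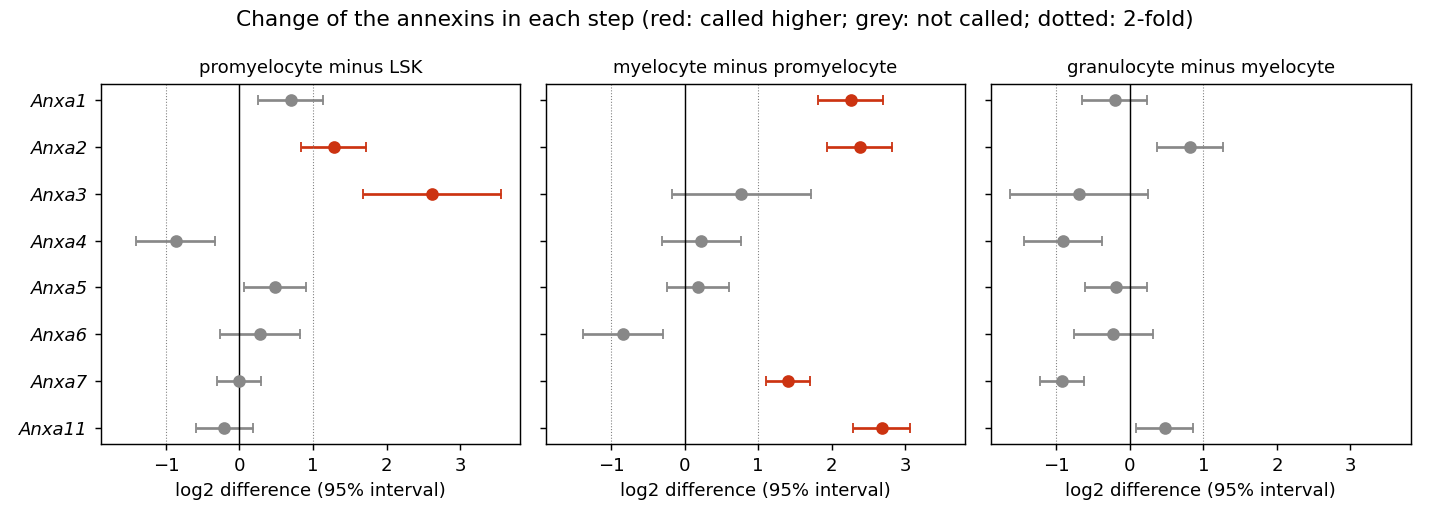
Each row is 1 annexin and each panel 1 step, with the log2 difference and its 95% interval on the horizontal axis; red points are called higher, grey points are not called, and dotted lines mark 2-fold. The 4 red points in the middle panel lie between 1.41 and 2.68, and the last panel has none.

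Whether the steps differed from one another was tested in the same fit, a test chosen after the levels had been seen. For each annexin the difference of a step was subtracted from that of the next, and 25.9% of all genes passed an adjusted p under 0.05 for the second step minus the first, and 16.0% for the last minus the second. The second step minus the first was 2.88 ± 0.31 for Anxa11 (adjusted p = 7.10e-06), whose first step was -0.21. It was 1.56 ± 0.36 for Anxa1 (adjusted p = 0.00407), 1.42 ± 0.25 for Anxa7 (adjusted p = 0.000472) and 1.10 ± 0.36 for Anxa2 (adjusted p = 0.0351). The same 4 had a last step below the second: the difference between these steps was -2.46 ± 0.36 for Anxa1, -2.33 ± 0.25 for Anxa7, -2.20 ± 0.31 for Anxa11 and -1.56 ± 0.36 for Anxa2 (adjusted p = 0.00682 for Anxa2, and smaller for the others). For Anxa2 the second step minus the first was no longer past the threshold without promyelocyte array 2 (0.65, adjusted p = 0.252), promyelocyte array 3 (0.96), LSK array 1 (1.00) or 2 (1.12), or myelocyte array 1 (1.03) or 3 (1.08), nor with arrays centred on the median (0.95, adjusted p = 0.0801). Anxa3, with -1.85 ± 0.76 for the second step minus the first (adjusted p = 0.0952), did not pass over all arrays, and passed without LSK array 3 (-1.06, adjusted p = 0.0271) or LSK array 2 (-2.40, adjusted p = 0.0126), and its last step minus the second, -1.46, passed without LSK array 3 (adjusted p = 0.00430). With all arrays as deposited and no block, Anxa4 did not pass for either difference. Under a replicate block it passed for both (1.10, adjusted p = 0.0338, and -1.14, adjusted p = 0.0408). For the second step minus the first, Anxa4 also passed with 75th percentile centring (1.17, adjusted p = 0.0437) or without myelocyte array 3 (1.27). Anxa6 passed for both only without myelocyte array 1 (-1.46 and 1.29), and Anxa5 passed for neither.

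Over more than 1 step, comparisons share arrays with those above. Granulocytes against LSK cells gave 4 annexins called higher (Anxa1 by 2.75, Anxa2 by 4.48, Anxa3 by 2.70 and Anxa11 by 2.94) and 1 lower (Anxa4), where 9.59% of genes were called higher and 16.5% lower, with a median of 1.59 beside 0.17 over all genes. Myelocytes against LSK cells gave 5 called higher, the same 4 and Anxa7 (1.40), and 0 lower, where 7.74% were called higher and 10.8% lower, with a median of 1.94 beside 0.05. Granulocytes against promyelocytes gave 3 higher (Anxa1 by 2.05, Anxa2 by 3.20 and Anxa11 by 3.15) and 1 lower (Anxa6), where 10.1% were called higher and 16.3% lower, with a median of 0.28 beside 0.13. Anxa3 was close to equal in that last pair (0.08). Without LSK array 3 Anxa3 was higher by 1.92 in granulocytes and by 2.60 in myelocytes than in LSK cells, and both remained called. Against each of the other 3 stages, Anxa2 and Anxa3 were called lower in LSK cells, and no annexin was called higher in a stage than in each of the other 3. The share of all genes called against each of the other 3 stages was not counted.

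The partners to which annexin proteins are known to bind did not all move with them. S100a10, the light chain of the Anxa2 complex, was at 10.2, 9.77 and 9.85 in LSK cells, 10.4, 9.68 and 9.26 in promyelocytes, 9.71, 8.06 and 8.19 in myelocytes and 5.94, 6.68 and 6.33 in granulocytes. The granulocyte arrays were far below all others, and the message fell by 3.63 ± 0.37 from LSK cells to granulocytes (12.4-fold, adjusted p = 4.53e-07), while Anxa2 rose over the same interval. In the last step S100a10 fell by 2.33 ± 0.37 (5.04-fold). Its lower level in myelocytes than in promyelocytes (-1.12, adjusted p = 0.0255) was not called without promyelocyte array 1 (-0.82), myelocyte array 2 (-0.82) or myelocyte array 3 (-0.88), nor with only those 2 groups in the fit (adjusted p = 0.0807).

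S100a6, or calcyclin, a partner of Anxa11, was at 6.00, 5.33 and 5.86 in LSK cells, 6.09, 4.64 and 4.91 in promyelocytes, 10.1, 9.32 and 9.40 in myelocytes and 11.6, 11.3 and 11.2 in granulocytes. It rose by 4.40 ± 0.31 in the second step and by 1.75 ± 0.31 in the last, and was 49.5-fold higher in granulocytes than in LSK cells. S100a11, a partner of Anxa1, was higher by 1.70 ± 0.15 in the second step and by 1.98 ± 0.15 in granulocytes over LSK cells (3.95-fold), and Sri, the calcium-binding sorcin that binds Anxa7, by 1.65 ± 0.15 and 1.41 ± 0.15 (2.67-fold). Of the 11 partners listed 9 were measured, and in the second step 3 were called higher, 1 lower and 5 not called, with a median of 0.54 beside 0.01 over all genes, of which 7.61% were called higher and 9.87% lower. The others were S100a4, the Anxa11 partner Pdcd6, the phospholipase Pla2g4a, the scaffold Ahnak and the plasminogen receptor Plgrkt, which were called in none of the 6 comparisons. The formyl peptide receptors Fpr1 and Fpr2, through which Anxa1 acts, were not analysed here.

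**Figure D3:**
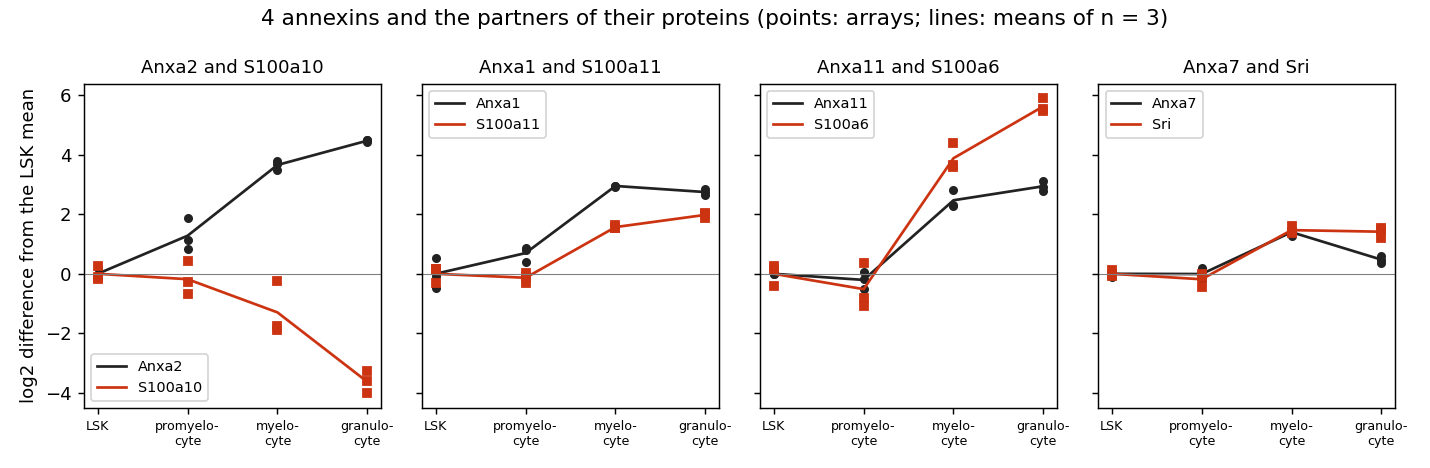
Each panel sets an annexin (black circles) beside a partner of its protein (red squares) as log2 difference from the gene's own LSK mean, with points for arrays and lines through stage means (n = 3). Anxa2 and S100a10 end 4.48 above and 3.63 below their LSK means, while S100a11, S100a6 and Sri lie above theirs from myelocytes on.

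Of 4 further annexin genes, Anxa8, Anxa10 and Anxa13 were dim in every group, and Anxa9 was called lower in 4 of the 6 comparisons. Anxa9 was at 6.80, 6.70 and 7.15 in LSK cells, 6.72, 6.99 and 6.47 in promyelocytes, 4.73, 4.55 and 4.17 in myelocytes and 5.11, 5.02 and 5.08 in granulocytes. The 6 earlier arrays were above the 6 later ones, and Anxa9 was 1.82 ± 0.18 lower in granulocytes than in LSK cells (-1.82, 3.52-fold, adjusted p = 3.37e-07), with a difference of -2.24 ± 0.18 in the second step to a dim level.

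A list of 15 genes linked to the movement of phospholipids between the leaflets of a membrane was followed, chosen for phosphatidylserine, the lipid that annexins bind. It holds scramblases, flippases and accessory subunits, and not all of them move phosphatidylserine. Of the 15 genes 14 were measured and 2 were dim everywhere. In the first step 1 was called higher and 1 lower, in the second 4 higher and 0 lower, and in the last 0 higher and 3 lower, with medians of -0.19, 0.42 and -0.10 beside 0.04, 0.01 and 0.09 over all genes. Of all genes, 1.61%, 7.61% and 2.35% were called higher in these steps, and 2.75%, 9.87% and 5.96% lower. The phospholipid scramblase gene Plscr1 was at 8.39, 7.82 and 7.53 in LSK cells, 8.15, 7.89 and 8.02 in promyelocytes, 10.6, 10.9 and 10.7 in myelocytes and 9.35, 9.55 and 9.48 in granulocytes. It rose by 2.72 ± 0.18 in the second step (6.59-fold) and fell by 1.28 ± 0.18 in the last (2.43-fold), so that its peak, like that of Anxa7, was in myelocytes. The calcium-activated scramblase Ano6 rose by 1.03 ± 0.16 in the second step, a call that was lost with arrays centred on the median (0.96), with cyclic loess (0.99), and without promyelocyte array 3 (0.98) or myelocyte array 2 (0.96). Among the flippases that return phosphatidylserine to the inner leaflet, Atp11a rose by 1.72 ± 0.17 and Atp8a1 by 1.58 ± 0.15 in the second step, and Atp11a was 7.25-fold higher in granulocytes than in LSK cells. Atp11b was 1.24 ± 0.14 higher in granulocytes than in promyelocytes (2.36-fold). Atp10a, a P4-ATPase known for moving phosphatidylcholine, fell by 2.75 ± 0.16 from LSK cells to granulocytes (6.74-fold), as did Plscr3, by 2.17 ± 0.15 (4.52-fold). Plscr3 was also called lower in the last step (-1.05), not so with 75th percentile centring (-0.88), quantile (-0.88) or cyclic loess normalization (-0.98), or without granulocyte array 1 (-0.97). Atp8b4 rose by 2.31 ± 0.32 in the first step (4.95-fold), and its LSK levels of 8.94, 9.08 and 7.28 were lowest on LSK array 3, as those of Anxa3 were. Without that array the rise was 1.73.

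Copines are another family of calcium-dependent phospholipid binders, and 8 of 9 were measured, 3 of them dim everywhere. Cpne3 was at 8.56, 7.61 and 8.04 in LSK cells, 8.65, 8.51 and 7.72 in promyelocytes, 11.4, 11.4 and 11.3 in myelocytes and 10.4, 10.5 and 10.5 in granulocytes. It rose by 3.10 ± 0.24 in the second step (8.55-fold), and Cpne2 by 1.33 ± 0.15 (2.52-fold), while 6 copines were not called and the median of the 8 was 0.14. Of all genes, 7.61% were called higher in that step and 9.87% lower. Of 9 genes of plasma membrane repair, 1 was called higher in the second step and 0 lower, with a median of 0.06. This was Capn1, the catalytic subunit of mu-calpain, which rose by 1.87 ± 0.16 and was 3.01 ± 0.16 higher in granulocytes than in LSK cells (8.03-fold). Capn2, the catalytic subunit of m-calpain, fell by 2.27 ± 0.33 over the same interval (4.81-fold). Its lower level in granulocytes than in myelocytes (-1.17) was not called without myelocyte array 1 (-0.62), granulocyte array 1 (-1.14, adjusted p = 0.0570) or granulocyte array 2 (-1.03, adjusted p = 0.0754). Myof, the ferlin myoferlin, was at 7.07, 6.07 and 7.20 in LSK cells and differed by -2.49 ± 0.29 in promyelocytes, where it was dim.

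The genes closest in pattern were sought by Pearson correlation over the 12 arrays among 13357 genes, as a description, since all arrays share their stages and high values are found wherever stages dominate. Anxa1 was most like Usp46 (0.994), Tmc6 (0.992) and Exoc1 (0.991). Anxa2 was most like Ap1s2 (0.994), Bmx (0.994) and Myo1f (0.993), and Anxa11 like Add3 (0.997), Nckap1l (0.995) and Cd300lf (0.995). For Anxa3 the closest were Cldn15 (0.985), Clec12a (0.979) and Rab44 (0.973), and for Anxa7 Lpcat1 (0.985), Selenoo (0.981) and Stradb (0.972). Anxa4 lay nearest to Ndrg3 (0.970), Nedd4 (0.952) and Crip1 (0.946), and Anxa6 to Ly6e (0.953), Scpep1 (0.935) and Pecam1 (0.928). Anxa5, with the smallest range, had the weakest, Pex16 (0.891), Alox12e (0.863) and Sowahc (0.844). Among the annexins themselves, Anxa1 and Anxa2 were at 0.957, Anxa2 and Anxa11 at 0.944 and Anxa1 and Anxa11 at 0.935, whereas Anxa6 was at -0.735 with Anxa11 and Anxa4 at -0.681 with Anxa2.

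Within a stage, the 3 arrays of some annexins stood in the same order as the summed levels of some marker lists. This is a description chosen after the levels had been seen. An order of 3 arrays can follow many lists at once, so it cannot tell which markers, if any, an annexin moved with. In myelocytes 4 of the 8 annexins ran in the same order over the 3 arrays as the summed levels of the basophil and mast cell markers (14.1, 13.2 and 12.3) and of the monocyte and macrophage markers (11.5, 10.7 and 9.98). These were Anxa4 (6.74, 6.25 and 5.99), Anxa5 (10.01, 9.66 and 9.62), Anxa6 (9.39, 8.61 and 8.15) and Anxa11 (10.85, 10.33 and 10.28). The order was also that of the B cell, T and NK cell and megakaryocyte sums, and of the myelocyte and granulocyte markers themselves. S100a10 and Capn2 were highest on myelocyte array 1 as well. All 7 basophil and mast cell markers were above the dim level in myelocytes and 4 of 7 in granulocytes, where the subunits of the IgE receptor Fcer1a (3.39) and Ms4a2 (3.52) were dim. In promyelocytes Anxa2 and Anxa5 ran in the order of the basophil and mast cell, monocyte and macrophage, and myelocyte sums, and 0 of 8 in that of the eosinophil sum (12.2, 8.90 and 12.6). Anxa3, Anxa6, Anxa7 and Anxa11 ran there in the order of the promyelocyte sum. Anxa1 and Anxa4 followed the LSK, granulocyte, B cell, T and NK cell, erythroid and megakaryocyte sums. In LSK cells Anxa3 and Anxa6 ran in the order of every marker sum except those of LSK, myelocyte and granulocyte markers. The Anxa6 arrays there lay within 9.25 to 9.34. In granulocytes Anxa2, Anxa3, Anxa4, Anxa5 and Anxa7 ran in the order of the promyelocyte, eosinophil and B cell sums. The part of other cells in the annexin values was not tested, and the share of all genes in each order was not counted. With any 1 array left out, myelocyte array 1 included, the second step was at least 2.11 for Anxa1, 2.15 for Anxa2, 1.31 for Anxa7 and 2.50 for Anxa11, and all 4 remained called.

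**Figure D4:**
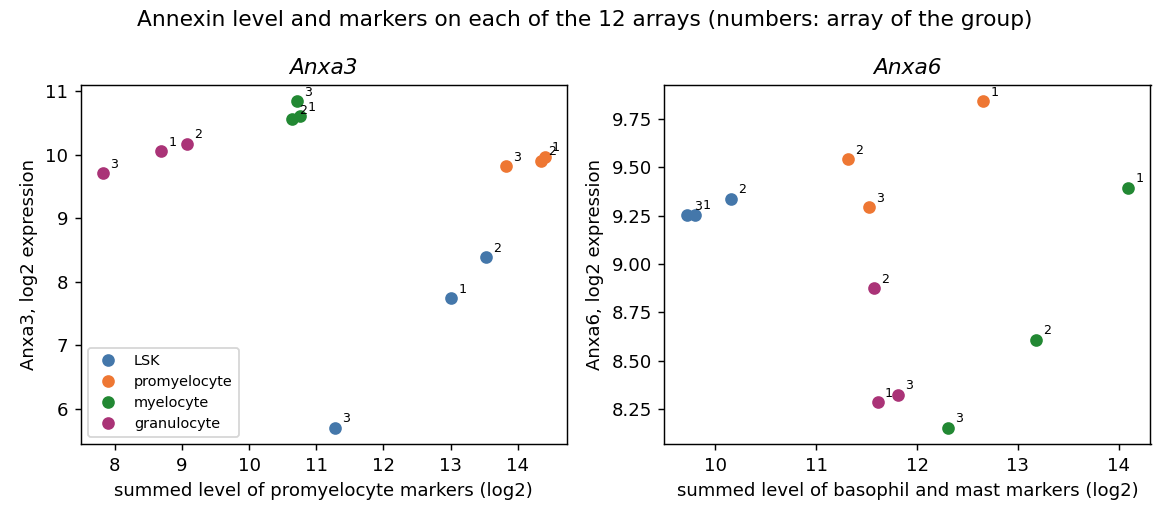
Each point is 1 of 12 arrays, coloured by stage and numbered by array, with the log2 level of an annexin on the vertical axis and the log2 summed level of a marker list on the horizontal axis. On the left LSK array 3 lies low for both Anxa3 and the promyelocyte markers. On the right the 3 myelocyte arrays run from 8.15 to 9.39 for Anxa6 and from 12.3 to 14.1 for basophil and mast cell markers. Anxa4, Anxa5 and Anxa11 share this order of arrays, as do other marker sums.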

How the data were processed

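Sorted cells gave total RNA for 12 Affymetrix Mouse Gene 1.0 ST arrays. The deposited log2 values had been made by the authors with Bioconductor's justRMA (its version is not given in the sources used here), that is background correction, quantile normalization and median polish. They were used as deposited. Array medians were 4.96 to 5.12, the median within-group SD was 0.21, and the number of arrays limits the precision. Of 34760 probe sets 21640 had 1 symbol in the platform table, and 21553 of these were matched to RefSeq by gene identifier. The probe set with the highest mean was kept, leaving 19937 genes. The dim level was the 95th percentile of the means of 1190 receptor genes.

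All genes were fitted with limma 3.58.1 in R 4.3.3, with 4 group means, moderated contrasts and F test, and Benjamini-Hochberg adjustment over all genes. The script was tested on simulated data. Named were the 8 annexins, called members of the other lists and the 3 genes of highest correlation for each annexin. Members and lists were chosen with earlier results of these data known. Alternatives were 4 other scalings, row choices, a filter on dim genes, thresholds, spread estimates, a block for the replicate number, and single arrays left out in turn. Array deviations of same-numbered samples correlated over 0.1 in every pair for promyelocytes and myelocytes (0.184, 0.118 and 0.196) and for no other pair of stages. Annexin protein sequences were not analysed here.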

Additional observations from a re-analysis of the deposited data

How the results depend on the processing

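Over 24 alternatives, 18 of the 20 called annexin differences were called in every one, the exceptions being Anxa2 in the first step (0.98 without promyelocyte array 1) and Anxa6 in granulocytes against promyelocytes (-0.38 to -0.98 where it was lost). Of 1152 annexin values under an alternative, 1130 kept their call, 6 lost it, 16 gained it and 0 of the called values changed sign, and of 2880 values of genes of the other lists 2823 kept, 21 lost and 36 gained it. At an adjusted p alone, 4 annexins were called in the first step and 3 in the last. With single arrays left out, the first step had 1 to 3 called and the last 0 to 1. With the replicate number as a block the counts were 2, 4, 0, 4, 5 and 5 in the 6 comparisons and 8 for the F test, so the replicate block changed no call of an annexin in a comparison of stages. Of 336 values of differences between steps, an added result, 320 kept their call, 7 lost it (all Anxa2, second step minus first, 0.65 to 1.12) and 9 gained it, among them Anxa4 under the replicate block (adjusted p = 0.0338 and 0.0408). This result was not run with 2 groups in the fit, which cannot hold 2 steps, nor with other thresholds. Centring on the 75th percentile moved the median of all genes from 0.13 to 0.36 for granulocytes against promyelocytes, from 0.17 to 0.39 against LSK cells and from 0.09 to 0.25 against myelocytes, and the share of higher calls from 38.4% to 48.3%, from 36.7% to 46.7% and from 28.3% to 41.8%. With 3 arrays per group, differences near 2-fold such as those of Anxa4 and Anxa6 were not settled, and the cause of these moves was not tested.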

Other observations

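A second probe set annotated to Anxa6 had stage means of 5.21 in LSK cells, 4.90 in promyelocytes, 5.01 in myelocytes and 5.21 in granulocytes, close to the dim level of 4.51. It did not follow the probe set described above, whose means ran from 8.50 to 9.56. No probe set with several symbols held an annexin of the 8 (0 of 1321).

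Anxa8, Anxa10 and Anxa13 had single-array values from 2.63 to 4.38, all under the dim level.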
